A study of Homo sapiens with 4 samples.

Results

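The mitochondrial ribosomal protein genes were taken from RNA sequencing of the human cell line SK-N-BE(2), an established line of neuroblastoma, a childhood tumour of the sympathetic nervous system. The knockdown cells carried a short hairpin RNA targeting IGF2BP3 (shIGF2BP3, 2 libraries), and the comparison cells carried a control hairpin (shControl, called sh-NC in the design text, 2 libraries). IGF2BP3 binds mRNA and reads its m6A methyl marks, and the series title names E2F2 mRNA, so that the genes described here lay outside the named question. The family was chosen with earlier results of these data known, and its members were then taken by name. They are every protein-coding row whose symbol is MRPL or MRPS followed by a number and at most 1 letter A to C. This rule gave 78 of the 64252 rows of the count table, and all 78 passed the filter on low counts. The labels do not say how many hairpins were used, how long the cells were kept or whether replicates were separate cultures. P-values therefore measure the spread between these libraries alone, and that spread may be technical.

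Mitochondria carry their own ribosome, which translates the few respiratory chain subunits encoded by mitochondrial DNA. Its rRNAs are transcribed inside the organelle, while its proteins are encoded in the nucleus, made in the cytosol and imported. Proteins of the large subunit carry the symbol MRPL and most of those of the small subunit MRPS. Some have a counterpart in bacterial ribosomes and others are specific to mitochondria. Some names mislead, since MRPS30 and MRPS18A sit in the large subunit. MRPS36 is now known as a subunit of the 2-oxoglutarate dehydrogenase complex and was left out of both subunits.

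Depth per library ran from 26755695 to 27537200 counts in shIGF2BP3 and from 27977019 to 31946756 counts in shControl. The targeted gene IGF2BP3 had 813 and 875 counts in shIGF2BP3, against 4215 and 4347 in shControl. That was a log2 fold change of -2.28 (SE 0.09, adjusted p = 1.655e-12). Every adjusted p given here is from the quasi-likelihood test of edgeR, with Benjamini-Hochberg adjustment over all genes tested, which were 19767 unless a library was left out. Sampling noise alone gives a chi-square of about 1 per degree of freedom, and it was 7.26 between the shIGF2BP3 replicates, 8.43 between the shControl replicates and 146 to 152.7 across groups. Markers of adrenergic neuroblastoma cells were present, among them HAND2 at 363.5 CPM in shIGF2BP3 and 853.8 CPM in shControl. Levels are TMM-scaled CPM, which are counts relative to the TMM-scaled library total of the genes that passed the filter on low counts. Of 10 such markers, 8 were lower and 1 higher, and their summed level was 5823 and 6211 CPM in shIGF2BP3, against 7654 and 7932 CPM in shControl. SOX10 of glia, CD3E and LYZ of leukocytes, and PECAM1 and KDR of endothelium had no counts in any library. The 5 fibroblast markers went both ways, with COL1A1, COL3A1 and DCN higher, LUM lower and PDGFRB not past the test. They summed to 706.3 and 721.7 CPM in shIGF2BP3, against 545.3 and 577.5 CPM in shControl. The glial, leukocyte, epithelial and endothelial lists each summed to at most 9.21 CPM in a shIGF2BP3 library and 12.7 CPM in a shControl library. The part of these other cell type markers in the results below was not tested.

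Most mitochondrial ribosomal protein genes that changed fell after the knockdown of IGF2BP3. Of the 78 members, 39 were lower, 11 were higher and 28 did not pass the test. That is 64.1% of members past the test, against 51.5% of all 19767 tested genes. The share that was lower was 50%, against 25.6% of all tested genes, and the share that was higher was 14.1%, against 25.9%. The median log2 fold change of members was -0.295, against 0.009 over all tested genes. Protein-coding genes within the members' range of shControl levels, 9289 in number, had 34.8% lower, 31.1% higher and a median of -0.033. Of these, 65.9% were past the test, so that the members' total share of 64.1% was near theirs. Without shControl replicate 2 the number of higher members was 6, with 37 lower. RNA from bulk cells cannot tell fewer cells of a kind from less RNA per cell.

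Added over all members, the level was 3037 and 2952 CPM in shIGF2BP3, against 3496 and 3439 CPM in shControl, which is 13.6% lower. The 39 lower members summed to 1068 and 1022 CPM in shIGF2BP3, against 1681 and 1679 CPM in shControl. The 11 higher members summed to 842.3 and 848.3 CPM in shIGF2BP3, against 657.8 and 635.9 CPM in shControl. The gains therefore offset part of the losses in the sum. Changes of single members ran from -2.04 (MRPL10) to 1.08 (MRPL41) on the log2 scale, and 8 members fell by at least 2-fold. The 2 libraries of each group did not overlap in 62 members, which is 79.5% of them, against 74.5% of all tested genes and 83% of the protein-coding genes within the members' range of levels. Those 62 hold the 50 members past the test and 12 that did not pass it.

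**Figure D1:**
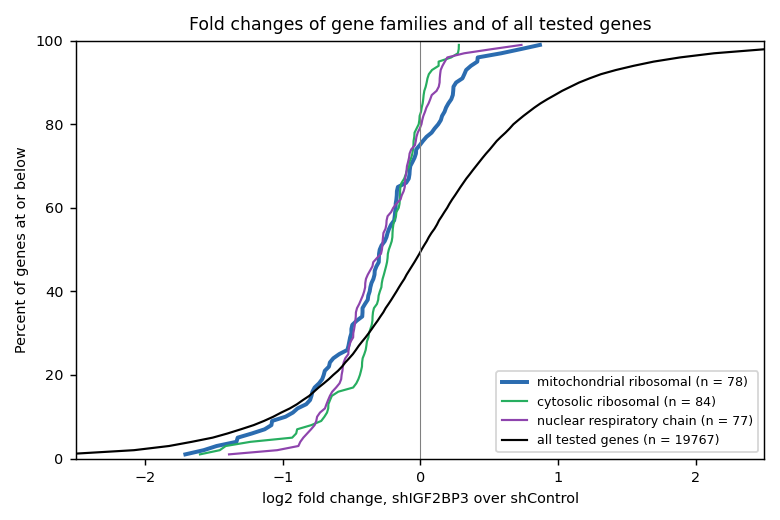
Cumulative share of genes (percent, vertical) at or below each log2 fold change (shIGF2BP3 over shControl, horizontal), for the 78 mitochondrial ribosomal, 84 cytosolic ribosomal and 77 nuclear respiratory chain genes tested and for all 19767 tested genes. The 3 families lie left of all genes through the middle of the range, with medians of -0.295, -0.229 and -0.279 against 0.009.

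The deepest falls of single genes were in the large subunit. Of its 51 genes, 29 were lower (56.9%), 7 higher (13.7%) and 15 not past the test, with a median log2 fold change of -0.332. Of the 26 small subunit genes, 10 were lower (38.5%), 4 higher (15.4%) and 12 not past the test, with a median of -0.182. The shares over all tested genes were 25.6% lower and 25.9% higher. Past the test, falls of at least 1.5-fold made up 25.5% of large and 26.9% of small subunit genes, against 16.2% of all tested genes. Summed levels were 1976 and 1914 CPM in shIGF2BP3, against 2311 and 2263 CPM in shControl, for the large subunit (15% lower). For the small subunit they were 1042 and 1022 CPM in shIGF2BP3, against 1169 and 1159 CPM in shControl (11.4% lower). Both sums were lower in each shIGF2BP3 library than in either shControl library, and the difference between subunits was not tested.

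Genes for proteins with a bacterial counterpart and for those specific to mitochondria were found on both sides. Among the 45 genes with a counterpart, 25 were lower (55.6%) and 4 higher (8.89%), with a median of -0.331. Among the 32 mitochondria-specific genes, 14 were lower (43.8%) and 7 higher (21.9%), with a median of -0.210. Over all tested genes, 25.6% were lower and 25.9% higher. The 10 mitochondria-specific genes of the small subunit had 2 lower (MRPS35 and MRPS34) and 3 higher (MRPS18B, MRPS27 and MRPS25), of which MRPS18B and MRPS25 lost their calls in some alternatives. These shares, 20% lower and 30% higher, were near those of all tested genes. The 16 small subunit genes with a bacterial counterpart had 8 lower (50%) and 1 higher (6.25%, MRPS10). MRPS36, outside both subunits, had a log2 fold change of 0.11 (SE 0.14) and did not pass the test.

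**Figure D2:**
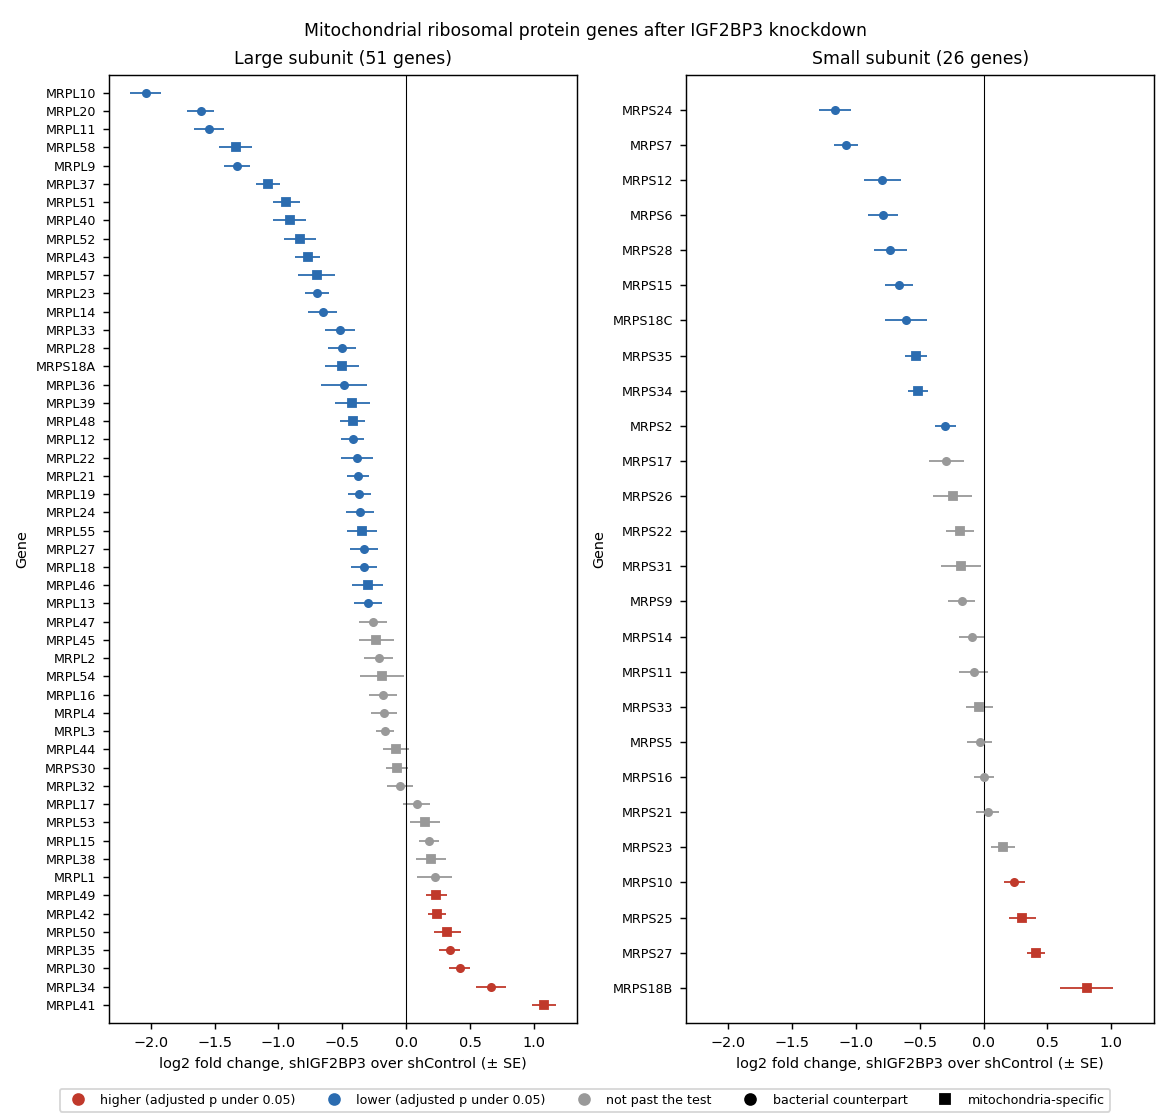
Log2 fold change (shIGF2BP3 over shControl, horizontal, bars show ± SE) of the 51 large subunit genes and the 26 small subunit genes, each ordered from lowest to highest. Red marks genes higher and blue genes lower at an adjusted p under 0.05, with 36 and 14 genes past the test in the large and small subunit.

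The lowest member was MRPL10, whose protein in bacteria anchors the stalk that recruits translation factors. It lies on the minus strand of chromosome 17, chr17:47823272-47831534 (GRCh38), and had 327 and 300 counts in shIGF2BP3, against 1293 and 1397 in shControl. Its level was 11.2 ± 0.43 CPM in shIGF2BP3 and 46.3 ± 2.40 CPM in shControl (SD, n = 2 each), a log2 fold change of -2.04 (SE 0.12, adjusted p = 2.018e-10). The partner that forms the stalk on it, MRPL12, had 1668 and 1405 counts in shIGF2BP3, against 1979 and 2311 in shControl, a log2 fold change of -0.42 (SE 0.09). MRPL11, which belongs to the base of the same stalk, had 445 and 390 counts in shIGF2BP3, against 1207 and 1335 in shControl. Its level was 14.96 ± 1.06 CPM in shIGF2BP3 and 43.7 ± 1.54 CPM in shControl (SD, n = 2 each), a log2 fold change of -1.55 (SE 0.12, adjusted p = 4.231e-09). Transcripts for all of these 3 stalk proteins were thus lower, by unequal amounts, beside 50% of all members. Whether stalk genes differ from other members was not tested.

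MRPL20, whose bacterial counterpart acts early in the assembly of the large subunit, had 518 and 575 counts in shIGF2BP3, against 1569 and 1913 in shControl. Its level was 19.6 ± 1.89 CPM in shIGF2BP3 and 59.7 ± 2.01 CPM in shControl (SD, n = 2 each), a log2 fold change of -1.61 (SE 0.11, adjusted p = 7.833e-10). MRPL58, also called ICT1, is a peptidyl-tRNA hydrolase built into the large subunit that releases peptides from stalled ribosomes. It had 312 and 312 counts in shIGF2BP3, against 773 and 872 in shControl, a log2 fold change of -1.34 (SE 0.13, adjusted p = 1.442e-07). MRPL9, the counterpart of bacterial L9, had 814 and 849 counts in shIGF2BP3, against 2168 and 2170 in shControl (log2 -1.33, SE 0.10, adjusted p = 4.968e-09). In each of these 3 genes both shIGF2BP3 libraries were far below both shControl libraries.

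Among mitochondria-specific proteins of the large subunit, MRPL37 had 993 and 859 counts in shIGF2BP3, against 1895 and 2201 in shControl (log2 -1.08, SE 0.09). MRPL51 had 823 and 696 counts in shIGF2BP3, against 1348 and 1697 in shControl (log2 -0.94, SE 0.10). MRPL40, which lies in the region of chromosome 22 lost in 22q11.2 deletion syndrome, had 444 and 376 counts in shIGF2BP3, against 720 and 892 in shControl (log2 -0.91, SE 0.13). The lowest small subunit genes were MRPS24, the counterpart of bacterial S3 at the mRNA entry channel, and MRPS7, the counterpart of S7 in the head. MRPS24 had 494 and 400 counts in shIGF2BP3, against 939 and 1151 in shControl (log2 -1.16, SE 0.12). MRPS7 had 999 and 899 counts in shIGF2BP3, against 1993 and 2181 in shControl (log2 -1.08, SE 0.09). Adjusted p-values of these 5 genes lay between 2.267e-08 and 1.15e-05. The other 29 lower members had log2 fold changes from -0.83 (MRPL52) to -0.30 (MRPS2). Among them were MRPS12, the counterpart of the decoding-centre protein S12 (log2 -0.79, SE 0.14), and MRPS6 (log2 -0.79, SE 0.12).

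The highest member was MRPL41, a mitochondria-specific protein of the large subunit first described as a BCL2-binding protein. It lies on the plus strand of chromosome 9, chr9:137551199-137552555, and had 1884 and 1834 counts in shIGF2BP3, against 802 and 1042 in shControl. Its level was 66.7 ± 0.24 CPM in shIGF2BP3 and 31.5 ± 2.48 CPM in shControl (SD, n = 2 each), a log2 fold change of 1.08 (SE 0.09, adjusted p = 3.122e-08). It was the only member that rose by at least 2-fold. MRPL34, the counterpart of bacterial L34, had 1362 and 1085 counts in shIGF2BP3, against 701 and 912 in shControl (log2 0.66, SE 0.12, adjusted p = 0.000101). MRPS18B, 1 of 3 human relatives of bacterial S18, had 278 and 398 counts in shIGF2BP3, against 176 and 228 in shControl (log2 0.81, SE 0.21, adjusted p = 0.003332). This call ended without shIGF2BP3 replicate 2, at a log2 fold change of 0.50 (adjusted p = 0.09821). The relatives MRPS18A and MRPS18C were lower, at log2 -0.50 (SE 0.13) and -0.61 (SE 0.17). Of the 3, only MRPS18C was counted here as having a bacterial counterpart, and MRPS18A and MRPS18B were counted as mitochondria-specific. The call of MRPS18C ended with no low-count filter, without shIGF2BP3 replicate 1 and without shControl replicate 2, and its log2 fold change was as small as -0.397 in the alternatives.

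The other 8 higher members changed by less than 1.5-fold. MRPL30, the counterpart of bacterial L30, had 2915 and 2626 counts in shIGF2BP3, against 2143 and 2173 in shControl (log2 0.42, SE 0.08). MRPS27, a pentatricopeptide repeat protein of the small subunit, had 3983 and 4089 counts in shIGF2BP3, against 2945 and 3383 in shControl (log2 0.41, SE 0.07). MRPL35, the counterpart of L35, had 2316 and 2299 counts in shIGF2BP3, against 1827 and 1974 in shControl (log2 0.34, SE 0.08). These 3 kept their calls when any single library was left out. MRPL50 had 1201 and 1023 counts in shIGF2BP3, against 884 and 970 in shControl (log2 0.32, SE 0.11), and MRPS25 had 1119 and 949 counts in shIGF2BP3, against 819 and 928 in shControl (log2 0.30, SE 0.11). MRPL42, the member with the highest CPM, had 5064 and 5237 counts in shIGF2BP3, against 4313 and 4779 in shControl (log2 0.24, SE 0.07). MRPS10, the counterpart of S10, had 1894 and 1861 counts in shIGF2BP3, against 1580 and 1735 in shControl (log2 0.24, SE 0.08), and MRPL49 stood at log2 0.24 (SE 0.08). The calls of MRPL50, MRPS25, MRPL42, MRPS10 and MRPL49 all ended without shControl replicate 2 and in some other fits.

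**Figure D3:**
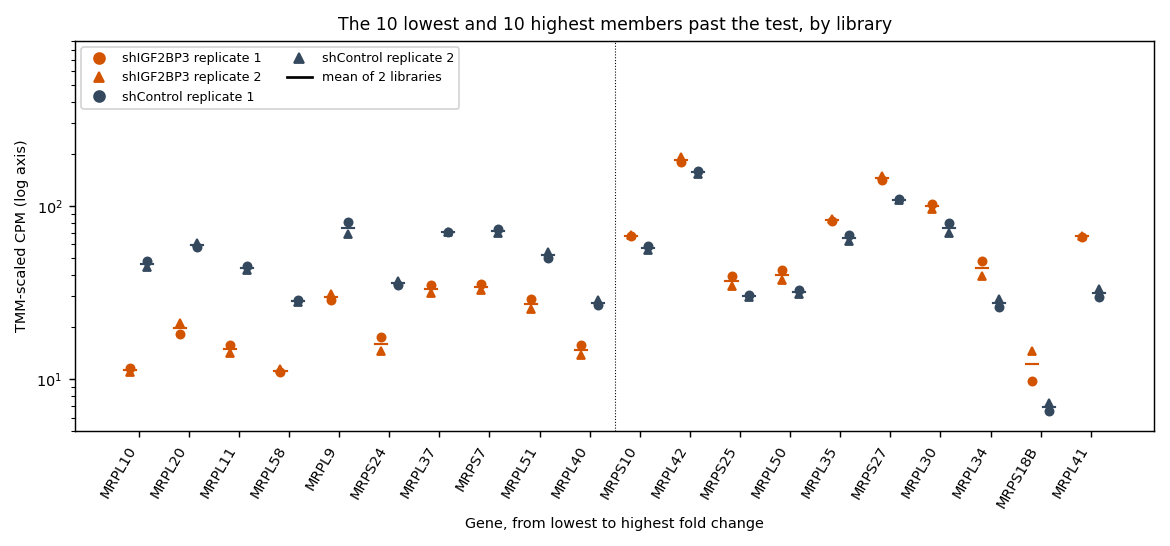
TMM-scaled CPM (vertical, log axis) in each of the 4 libraries for the 10 lowest and the 10 highest members past the test, with shIGF2BP3 in orange left of shControl in dark blue and a short line at each mean. The libraries of the groups do not overlap in any of the 20 genes, and MRPS18B shows the widest gap between its shIGF2BP3 libraries, 9.81 and 14.5 CPM.

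Among lower members, 10 lost their call in at least 1 alternative fit, with MRPS18C counted among them. They include MRPL36 (adjusted p = 0.03155) and MRPL46 (adjusted p = 0.0448), which stood just inside the threshold. In all, 34 of the 50 members past the test, 29 lower and 5 higher, kept their call under every alternative other than a minimum fold change. None of the 50 changed direction in any alternative. The 28 members that did not pass the test had log2 fold changes from -0.29 (MRPS17) to 0.22 (MRPL1), with SEs from 0.07 to 0.17. MRPL47 (log2 -0.26, adjusted p = 0.05131) and MRPL3 (log2 -0.17, adjusted p = 0.05566) stood just outside the threshold. At these SEs a small change in either direction would not have been detectable.

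Levels per length put the members in a different order from raw counts. In shIGF2BP3 the highest were MRPL3 at 71.4, MRPS34 at 65.8 and MRPL15 at 62.5 CPM per kb of exon, and the median was 16.0 CPM per kb. In shControl the highest were MRPS34 at 93.8, MRPL3 at 80.2 and MRPL12 at 71.7 CPM per kb, followed by MRPL21 at 59.3 and MRPL33 at 58.8, and the median was 20.4 CPM per kb. MRPS34, a mitochondria-specific protein of the small subunit, had 1969 and 1864 counts in shIGF2BP3, against 2527 and 3200 in shControl (log2 -0.51, SE 0.08). MRPL3, the counterpart of L3 near the peptidyl transferase centre, had 3732 and 3441 counts in shIGF2BP3, against 3941 and 4458 in shControl. MRPL21 had 1396 and 1381 counts in shIGF2BP3, against 1832 and 1930 in shControl (log2 -0.38, SE 0.09). MRPL33 had 638 and 546 counts in shIGF2BP3, against 843 and 927 in shControl (log2 -0.52, SE 0.12). The lowest were MRPL10 at 4.94 CPM per kb in shIGF2BP3 and MRPS18B at 4.51 CPM per kb in shControl. Spearman's rho of the log2 fold change across the 78 members was 0.039 with shControl level, 0.259 with exon length and -0.023 with the number of exon blocks, which are descriptions over genes that share the same 4 libraries.

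Promoters of the 3 lowest and 3 highest members past the test that had a RefSeq promoter are shown, since their members moved furthest. Each is the 150 bases before the RefSeq start (GRCh38.p14), written 5′ to 3′ on the gene's strand, with capitals at words of the ETS or NRF1 type. In some genes, such as MRPL11 and MRPL41, the RefSeq start differs from the outermost start in GENCODE. The windows are chr1:1407294-1407443 (minus strand) for MRPL20, chr11:66438849-66438998 (minus) for MRPL11, chr17:75012520-75012669 (plus) for MRPL58, chr9:137551729-137551878 (plus) for MRPL41, chr6:30617690-30617839 (plus) for MRPS18B and chr19:17292423-17292572 (plus) for MRPL34.
MRPL20: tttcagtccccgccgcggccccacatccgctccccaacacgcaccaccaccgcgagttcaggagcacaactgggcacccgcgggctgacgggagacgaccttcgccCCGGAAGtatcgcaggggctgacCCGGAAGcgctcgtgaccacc
MRPL11: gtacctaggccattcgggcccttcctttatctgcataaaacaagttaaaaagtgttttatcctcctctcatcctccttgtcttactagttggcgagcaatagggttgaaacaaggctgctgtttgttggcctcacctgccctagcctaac
MRPL58: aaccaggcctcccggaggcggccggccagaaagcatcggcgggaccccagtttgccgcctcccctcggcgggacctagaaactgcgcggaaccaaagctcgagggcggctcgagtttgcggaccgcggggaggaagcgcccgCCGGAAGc
MRPL41: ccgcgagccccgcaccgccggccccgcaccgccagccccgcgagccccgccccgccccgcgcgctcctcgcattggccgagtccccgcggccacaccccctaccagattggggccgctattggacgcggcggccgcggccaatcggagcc
MRPS18B: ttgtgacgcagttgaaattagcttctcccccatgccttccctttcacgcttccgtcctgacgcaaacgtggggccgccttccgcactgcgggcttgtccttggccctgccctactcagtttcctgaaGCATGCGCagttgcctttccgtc
MRPL34: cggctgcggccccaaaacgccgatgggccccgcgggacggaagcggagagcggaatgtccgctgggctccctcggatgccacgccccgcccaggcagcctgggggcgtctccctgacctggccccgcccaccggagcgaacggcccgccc
MRPL20 held an ETS word at 44 and another at 21 bases before the start, and MRPL58 held one at 8 bases before it. MRPS18B held an NRF1 word at 23 bases before the start. The windows of MRPL11, MRPL41 and MRPL34 held none of the words searched.

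The wider search used 250 bases before to 50 bases after the start, on both strands, for 69 members with a promoter. The 9 others were MRPL2, MRPL10, MRPL13, MRPL15, MRPL21, MRPL23, MRPL35, MRPS28 and MRPS36. Words were CCGGAAG for ETS factors such as GABPA, GCGCANGC for NRF1, AANATGGC for YY1, CACGTG for the E-box bound by MYC proteins, and TTTCCCGC or TTTGGCGC for E2F. TTTGGCGC ends in letters that open the NRF1 word, so that a pair of matches can share bases. Promoters of members held the ETS word in 42.0%, against 10.7% of all 27305 promoters and 14.4% of the 15220 that belong to protein-coding symbols of the count table. The YY1 word was in 36.2% of members, against 6.82% of all and 8.01% of protein-coding promoters. The NRF1 word was in 33.3%, against 12.5% and 16.9%. The E-box share of 8.70% lay between those of all promoters, 7.43%, and of protein-coding ones, 8.90%. An E2F word was in 4.35%, which is 3 promoters, against 2.31% and 3.07%. Members that fell and members that did not pass the test both carried the ETS word often, 14 of 34 and 13 of 25, and 2 of 10 higher members carried it. The NRF1 word was in 11 of 34 lower, 8 of 25 uncalled and 4 of 10 higher members. The median GC content of the windows was 60.3% for members and 58.3% for all promoters.

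Of the factors and coactivators linked to such promoters, NRF1 fell. It had 11.97 ± 1.88 CPM in shIGF2BP3 and 19.8 ± 0.47 CPM in shControl (SD, n = 2 each), a log2 fold change of -0.72 (SE 0.15, adjusted p = 0.0005305). GABPB1, which pairs with GABPA to bind ETS sites, also fell (log2 -0.49, SE 0.09), while GABPA itself (log2 0.08, SE 0.09) and YY1 (log2 -0.12, SE 0.07) did not pass the test. The coactivator PPRC1 was lower (log2 -0.34, SE 0.08) and its relative PPARGC1B higher (log2 0.73, SE 0.12). In all, 3 of these 8 regulators were lower (37.5%) and 1 higher (12.5%). The shares over all tested protein-coding genes were 31.2% and 29.7%, so that the lower share was near theirs.

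Many members face another gene across a shared start region. By outermost GENCODE starts, a neighbour was a protein-coding gene on the opposite strand starting within 1000 bases or overlapping by at most 200. Such a neighbour was found for 19 members (24.4%), against 8.82% of 19951 protein-coding genes. Of the 12 lower members among them, 7 had a lower neighbour, 1 a higher one (MRPS34 with EME2) and 4 one that did not pass the test. Among all tested protein-coding genes, 31.2% were lower and 29.7% higher. Of the 3 higher members, 2 had a higher neighbour and 1 (MRPL30 with MITD1) one that did not pass, and the 4 uncalled members had 2 lower and 2 higher neighbours. Of the 7 pairs with both genes lower, 5 lost a call in some alternatives, through MRPL13, MRPL18, MRPL27, MRPL36 or TWNK, the neighbour of MRPL43. The largest changes were often those of the neighbour. MRPL27 (log2 -0.33, SE 0.11) faces EME1, a subunit of a DNA structure-specific nuclease, which had 6.25 ± 0.49 CPM in shIGF2BP3 and 23.7 ± 3.56 CPM in shControl (log2 -1.91, SE 0.17). MRPL57 (log2 -0.70, SE 0.14) faces SKA3, a kinetochore protein of mitosis, which had 9.98 ± 0.84 CPM in shIGF2BP3 and 26.6 ± 2.48 CPM in shControl (log2 -1.41, SE 0.14). MRPL13 (log2 -0.30, SE 0.11) faces MTBP, a factor of replication initiation (log2 -0.98, SE 0.14), and MRPL18 (log2 -0.33, SE 0.10) faces TCP1, a subunit of the cytosolic chaperonin (log2 -0.97, SE 0.07).

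On the other side, MRPL41 faces PNPLA7, a lysophospholipase, which had 41.6 ± 1.72 CPM in shIGF2BP3 and 10.2 ± 0.50 CPM in shControl (log2 2.03, SE 0.13, adjusted p = 3.36e-10). The outermost GENCODE starts of this pair are 665 bases apart. The RefSeq start of MRPL41 lies further from PNPLA7, and that of MRPL36 further from NDUFS6. With those RefSeq starts and the neighbours' GENCODE starts, both pairs would lie beyond the 1000-base limit. MRPL50 faces ZNF189 (log2 0.33, SE 0.12), whose call ended without any 1 of the 4 libraries. Neighbours did not always share the member's direction. NDUFB5, a subunit of respiratory complex I, rose (log2 0.88, SE 0.08) beside MRPL47, which did not pass the test. MRPL46 and MRPS11 face each other, at log2 -0.30 (SE 0.12) and -0.08 (SE 0.11). MRPL10, the lowest member, faces LRRC46, which was barely expressed, at 0.70 ± 0.09 CPM in shIGF2BP3 and 0.89 ± 0.37 CPM in shControl (SD, n = 2 each).

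**Figure D4:**
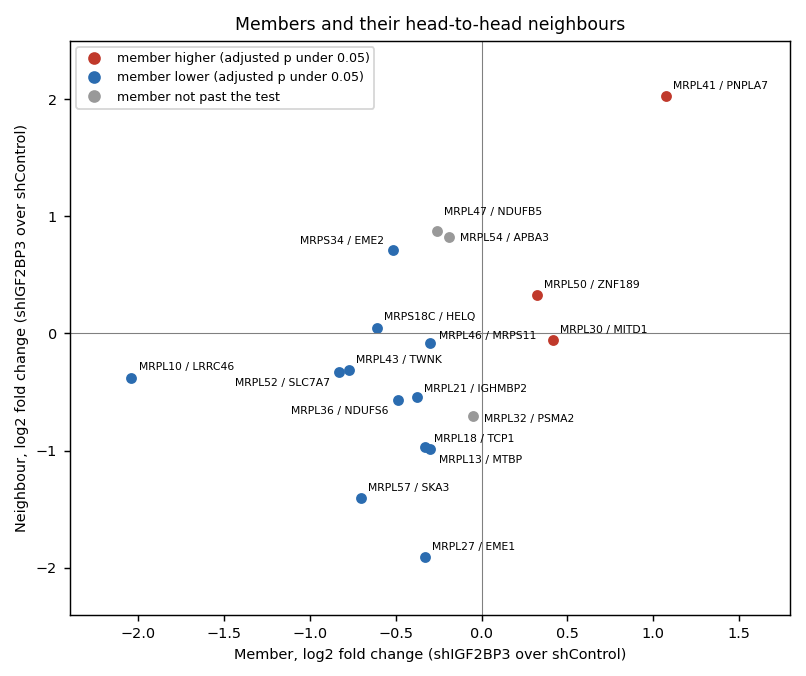
Log2 fold change (shIGF2BP3 over shControl) of each member (horizontal) and of the protein-coding gene it faces head to head (vertical), 1 point a pair, coloured by the member's call. The pair MRPL41 and PNPLA7 stands at the upper right (1.08 and 2.03) and MRPL27 and EME1 at the bottom (-0.33 and -1.91).

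Reads of some members could be shared with other annotated genes, since no source used here gives the counting rule or the strand setting. Exon bases overlapped with another gene in 41 members, on the same strand in 16 and on the opposite strand alone in 25. The overlapping members had 21 lower and 6 higher genes with a median log2 fold change of -0.300, and the 37 without overlap had 18 lower and 5 higher with a median of -0.243. MRPL51 shares 31.3% of its exon bases with NCAPD2, a condensin subunit on the opposite strand that had 4160 and 4079 counts in shIGF2BP3, against 11894 and 13291 in shControl. MRPS6 overlaps SLC5A3 and MRPS17 overlaps NIPSNAP2 on the same strand, both with more counts than the member, as does BABAM2 with MRPL33. Same-strand partners of MRPL28 (PGAP6) and MRPL53 (CCDC142) had 94.3% and 65% of the member's counts. Partners of MRPS16 (DNAJC9) and MRPS5 (ZNF514) had 49.5% and 44.2%. On the opposite strand, MRPS18A shares 47.0% of its exon bases with RSPH9, MRPS18C 40.2% with ABRAXAS1 and MRPL43 32.8% with SEMA4G. With the strand setting unknown, the values of all 41 overlapping members are uncertain to some degree. Partners of MRPL20, MRPL11, MRPL9 and MRPL34 had fewer counts than the member in every library. SSBP3 of MRPL37, GGA3 of MRPS7 and SYVN1 of MRPL49, on the opposite strand, had more counts than the member in both shIGF2BP3 libraries. Log2 fold changes of these partners were -0.60, -0.34 and 1.36. FAU of MRPL49 and NR2C2 of MRPS25 also had more counts there, at log2 0.06 and 0.005. The same held for SARS2 of MRPS12 (log2 -0.20), which shares 16.3% of that member's exon bases, and for TWNK of MRPL43 (log2 -0.31). MRPL10, MRPL58, MRPL40 and MRPL41 share no exon bases with another gene. Pseudogenes of the family made 78 further rows, 57 of them at 0 in all libraries, and their counts came to at most 0.400% of the members' counts. Most of these counts were those of MRPS31P5, with 222 and 214 in shIGF2BP3, against 226 and 277 in shControl, beside 321 and 366 in shIGF2BP3, against 390 and 422 in shControl, for its parent MRPS31. The value of MRPS31 is therefore uncertain too.

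Other parts of the mitochondrial translation machinery changed to different degrees. Of 5 genes for mitoribosome proteins with other names, AURKAIP1 (log2 -0.63, SE 0.11) and GADD45GIP1 (log2 -0.39, SE 0.08) fell, and CHCHD1, PTCD3 and DAP3 did not pass the test. Of 27 assembly factors, 13 were lower (48.1%) and 2 higher (7.41%), with a median of -0.269. The shares over all tested protein-coding genes were 31.2% lower and 29.7% higher. MIEF1, whose transcript also encodes an assembly microprotein, had 54.0 ± 3.56 CPM in shIGF2BP3 and 109.6 ± 6.67 CPM in shControl (log2 -1.02, SE 0.08). TRUB2, a pseudouridine synthase, was lower (log2 -0.93, SE 0.12), as was RPUSD4, another such enzyme (log2 -0.57, SE 0.10), while the GTPase GTPBP10 was higher (log2 0.61, SE 0.09). The number of lower assembly factors was 7 without shIGF2BP3 replicate 2, and 6 when libraries were scaled by size alone.

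Of 15 translation factors, 5 were lower, 2 higher and 8 did not pass the test, and the lower share of 33.3% was near the 31.2% of all protein-coding genes. TACO1, an activator of cytochrome oxidase translation, had 13.7 ± 0.41 CPM in shIGF2BP3 and 27.4 ± 1.51 CPM in shControl (log2 -1.0, SE 0.13). The recycling factor GFM2 (log2 -0.53, SE 0.09), the mRNA-stabilising SLIRP (log2 -0.67, SE 0.12) and the elongation factor TUFM (log2 -0.38, SE 0.07) were lower too. For mitochondrial transcription, TFAM (log2 -0.62, SE 0.08) and the polymerase POLRMT (log2 -0.52, SE 0.08) fell, and the other 3 of 5 genes did not pass the test. That is 40% lower, against 31.2% of all tested protein-coding genes. The rRNAs of the organelle did not fall with the mRNAs of the ribosomal proteins. MT-RNR1, the small subunit rRNA, had 950.1 ± 31.8 CPM in shIGF2BP3 and 612.7 ± 110.7 CPM in shControl (log2 0.63, SE 0.13, adjusted p = 0.008858). MT-RNR2, the large subunit rRNA, was 0.19 higher on the log2 scale (SE 0.06, adjusted p = 0.01573). Neither passed the test when either shIGF2BP3 replicate was left out, and MT-RNR2 did not pass without shControl replicate 2. No source used here says whether rRNA was depleted or poly(A) RNA selected.

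Other large families of abundant proteins also had more lower than higher genes. Of 84 tested cytosolic ribosomal protein genes, 47 were lower and 4 higher, with a median of -0.229. Of 77 tested nuclear genes of the respiratory chain, 42 were lower and 4 higher, with a median of -0.279. In shares, 50% of mitochondrial ribosomal, 56.0% of cytosolic ribosomal and 54.5% of respiratory chain genes were lower. Higher genes were 14.1%, 4.76% and 5.19% of the same families. Over all tested genes, 25.6% were lower and 25.9% higher, and over tested protein-coding genes 31.2% and 29.7%. The differences between families were not tested.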

How the data were processed

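The authors deposited whole-number counts per Ensembl gene for 4 libraries, made from TRIzol total RNA with an Illumina TruSeq kit, per the labels' protocols. The submitters' processing notes name HISAT2 2.2.0, StringTie and hg38. No source used here gives the counting rule, strand setting or annotation release. Symbols came from a gene name table for 56105 rows and GENCODE release 29 for 486, with 7661 rows unnamed. Positions and lengths (union of exons of protein-coding transcripts) are those of GENCODE release 29, and promoters those of RefSeq (GRCh38.p14).

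These deposited counts went into edgeR 4.0.16, run in R 4.3.3 (filterByExpr with a smallest count of 10, TMM scaling, robust quasi-likelihood test). Benjamini-Hochberg adjustment ran over all 19767 genes kept, with a threshold of 0.05. Levels are TMM-scaled CPM, given as mean ± SD (n = 2), and each log2 fold change has its SE. The fit had 2 residual degrees of freedom, a median prior of 15.06 and a common biological coefficient of variation of 12.62%. Members had 176 to 5237 counts in a library, and a count of 0 allows up to 3 counts (0.0958 to 0.111 CPM), counting error only.

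The members and all gene lists were chosen with earlier results of these data known. Counts per library were given for the 10 highest and 10 lowest members past the test and the 5 highest per length, and up to 4 genes by smallest p were named from other lists. Other genes that are no members, such as GABPA, YY1, cell type markers and neighbours, were named after their values were seen. Alternatives were other scalings and filters, DESeq2 1.42.0, limma 3.58.1 voom, a replicate block, summed symbols, a minimum size of change and each library left out in turn. An older edgeR fit was added after seeing the data. The fit was also tested on simulated data for the comparison of shIGF2BP3 with shControl (19176 genes). Of 67 genes given a 1.5-fold change it found 31, of 67 given a 2-fold change 54, and of 66 given a 4-fold change 63, and it made 12 false calls.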

Additional observations from a re-analysis of the deposited data

How the results depend on the processing

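The median log2 fold change of members stayed below 0 in every alternative. It was -0.214 when libraries were scaled by size alone, where the median of all genes was 0.09, and between -0.328 and -0.267 without single libraries. A minimum log2 fold change of 0.58 (1.5-fold) left 3 higher and 20 lower members and 6690 of all genes, fewer by construction. Without single libraries there were 6 to 12 higher and 32 to 37 lower members, with 8800 to 9442 genes called in all, and IGF2BP3 stood between -2.388 and -2.199. A lone library was then assumed to vary like the pair of the other group. DESeq2's Wald test called 8 higher and 36 lower members, and no low-count filter gave 10 and 33. The older edgeR fit gave 11 and 40. No member past the test changed direction in any alternative. Of the 28 uncalled members, 6 passed in at least 1 alternative. The cause of these changes was not tested.

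Deviations of same-numbered libraries had a correlation of 0.021 over 19767 genes, and the numbers were not taken to pair the libraries. With the replicate block there were 11 higher and 39 lower members, with no member's call changed, and IGF2BP3 stood at -2.284. With 2 libraries a group, the simulated comparison of shIGF2BP3 with shControl found 31 of 67 genes changed 1.5-fold. Few genes were changed in the simulation, whereas 51.5% of all tested genes were called in the data. The adjusted p threshold was therefore harder to pass in the simulation. Its share found does not measure how many small changes were missed here.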
